A study of Mus musculus with 20 samples.

Results

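The adipokine genes described here are 8 genes for proteins that fat tissue secretes, *Adipoq*, *Lep*, *Retn*, *Cfd*, *Rbp4*, *Nampt*, *Rarres2* and *Apln*, chosen by name from 36611 genes. All 8 were found in the gene sums, and all 8 passed the filter on low values in each comparison. The RNA came from iWAT, the inguinal fat depot under the skin, of 20 female C57BL/6 mice, 6 months old, in 4 groups of 5. Controls were littermates with the floxed *Tmem120a* allele (*Tmem120a* fl/fl) and no Cre. In *Ad-Tmem120a*-/- mice, the knockout, the same floxed allele was combined with Adip-Cre, a Cre recombinase driven by the promoter of adiponectin, so that exons 2 and 3 of *Tmem120a* are removed in adipocytes and other cells of the tissue keep the gene. Both genotypes ate either a low fat diet (LFD), with 10.5% fat, or a high fat diet (HFD), with 58% fat, for 15 weeks. The tissue was not sorted, so that fewer cells of a type and less RNA per cell cannot be told apart. The question for these genes was how each adipokine transcript differed between diets and genotypes, and which of them rose and fell together from mouse to mouse.

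Adipokines carry signals from fat to other organs or act within the fat itself. Leptin (*Lep*) reports the size of the fat store to the brain and restrains feeding, and its transcript is known to rise as adipocytes enlarge. Adiponectin (*Adipoq*) is an abundant adipocyte hormone that raises insulin sensitivity, and resistin (*Retn*) opposes insulin in mice. Adipsin (*Cfd*, complement factor D) is the protease that cleaves factor B in the alternative complement pathway. Retinol binding protein 4 (*Rbp4*) carries vitamin A in the blood, and *Nampt* makes a precursor of NAD and is also secreted. Chemerin (*Rarres2*) attracts immune cells and acts on adipocytes through the receptor *Cmklr1*, and apelin (*Apln*) acts through *Aplnr* on blood vessels and on metabolism.

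RefSeq promoters of 300 bases (250 before to 50 after the start, build GRCm38.p6) were held for 7 of the 8 genes, and 4 of them are shown so that a pair of genes that rose on HFD can be read beside a pair that did not. Capitals mark GGGCGG (a GC box) or TTGCNNAA (a C/EBP-type motif), on either strand. *Lep* lies at chr6:29059971-29060270 (plus strand), *Apln* at chrX:48034804-48035103 (minus), *Retn* at chr8:3655520-3655819 (plus) and *Cfd* at chr10:79890603-79890902 (plus).
Lep: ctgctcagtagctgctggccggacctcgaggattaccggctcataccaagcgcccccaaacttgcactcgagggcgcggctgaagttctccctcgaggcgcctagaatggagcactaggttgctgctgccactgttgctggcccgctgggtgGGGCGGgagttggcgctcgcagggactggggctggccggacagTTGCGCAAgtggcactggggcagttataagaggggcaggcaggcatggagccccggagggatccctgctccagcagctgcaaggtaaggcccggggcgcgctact
Apln: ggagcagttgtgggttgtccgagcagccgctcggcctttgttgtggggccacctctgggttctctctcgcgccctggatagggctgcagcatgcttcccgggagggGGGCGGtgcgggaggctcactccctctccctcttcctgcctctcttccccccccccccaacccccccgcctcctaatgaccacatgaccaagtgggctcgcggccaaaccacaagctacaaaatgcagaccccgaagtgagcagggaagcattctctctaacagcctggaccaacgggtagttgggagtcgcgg
Retn: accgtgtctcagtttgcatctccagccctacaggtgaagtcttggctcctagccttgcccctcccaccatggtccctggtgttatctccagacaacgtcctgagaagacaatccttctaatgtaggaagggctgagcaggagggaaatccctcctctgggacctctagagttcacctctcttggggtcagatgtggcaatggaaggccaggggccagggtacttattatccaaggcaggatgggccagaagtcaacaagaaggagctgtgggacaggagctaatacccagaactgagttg
Cfd: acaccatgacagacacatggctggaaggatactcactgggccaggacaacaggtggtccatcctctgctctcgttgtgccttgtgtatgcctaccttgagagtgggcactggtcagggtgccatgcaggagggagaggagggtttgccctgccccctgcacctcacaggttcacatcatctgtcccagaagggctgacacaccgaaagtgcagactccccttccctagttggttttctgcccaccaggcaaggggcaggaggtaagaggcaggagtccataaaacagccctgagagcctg
The *Lep* window held 1 GGGCGG match, which begins 98 bases before the start, and 1 TTGCNNAA match, which begins 55 bases before it. The *Apln* window held 1 GGGCGG match, 144 bases before the start, and no TTGCNNAA match. The windows of *Retn*, *Cfd* and *Adipoq* held none of the motifs searched, and that of *Nampt* held 5 GGGCGG matches and 1 AGGTCA match. *Rbp4* has 2 windows, of which 1 held 1 TTGCNNAA, 2 GGGCGG and 1 TATAAA match and the other held none, so that the pair of motifs seen in *Lep* was also present at a gene that was not called between diets. GGGCGG was present in 35.7% of all 32851 promoters and TTGCNNAA in 10.8%, on both strands. AGGTCA was present in 16.3%, TATAAA in 13.6% and CACGTG in 7.15%, while the DR1 motif, which is made of a pair of AGGTCA half-sites and overlaps AGGTCA, was present in 0.0396% and in no window of these genes.

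The libraries held between 54605101 and 92387737 estimated counts, and log2 levels of replicates correlated with r between 0.881 and 0.972. *Tmem120a* lay between 57.9 and 131.9 TPM (relative transcript abundance corrected for length) in control mice on LFD and between 21.5 and 74.0 in the knockout, and between 83.3 and 195.7 against 29.5 and 89.7 on HFD, so that the genotypes overlapped by value on both diets. Its log2 fold change in the knockout was -1.61 ± 0.34 (SE, n = 5) on LFD and -1.67 ± 0.29 on HFD. By edgeR's quasi-likelihood test it was not called at adjusted p under 0.1 (adjusted p = 0.93 and 0.17). It was called in edgeR with the library GC slope described further on as a covariate (adjusted p = 0.0124 and 8.66e-05). That covariate was added after the data were seen. All 11 white adipocyte genes checked, among them *Fabp4*, *Plin1* and *Cidec*, were above 0 in all 20 libraries.

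On LFD in control mice the mean level ran from *Cfd* (2444 ± 1648 TPM, SD, n = 5) through *Adipoq* (904 ± 192), *Retn* (669 ± 365), *Rarres2* (178 ± 21.5), *Lep* (169 ± 97.4), *Rbp4* (93.7 ± 23.1) and *Nampt* (68.3 ± 6.74) to *Apln* (0.768 ± 0.313). On HFD in control mice *Adipoq* (1235 ± 95.3) and *Cfd* (1225 ± 413) stood side by side within their spread, and *Lep* (804 ± 130) stood beside *Retn* (759 ± 387). *Apln* was the scarcest of the 8 in every group, with 37 to 247 estimated counts in libraries on LFD and 414 to 1484 on HFD. Of the genes annotated with more than 1 transcript, *Adipoq*, *Lep*, *Retn* and *Rbp4* took at least 95.0% of their TPM from 1 transcript in every library.

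**Figure D1:**
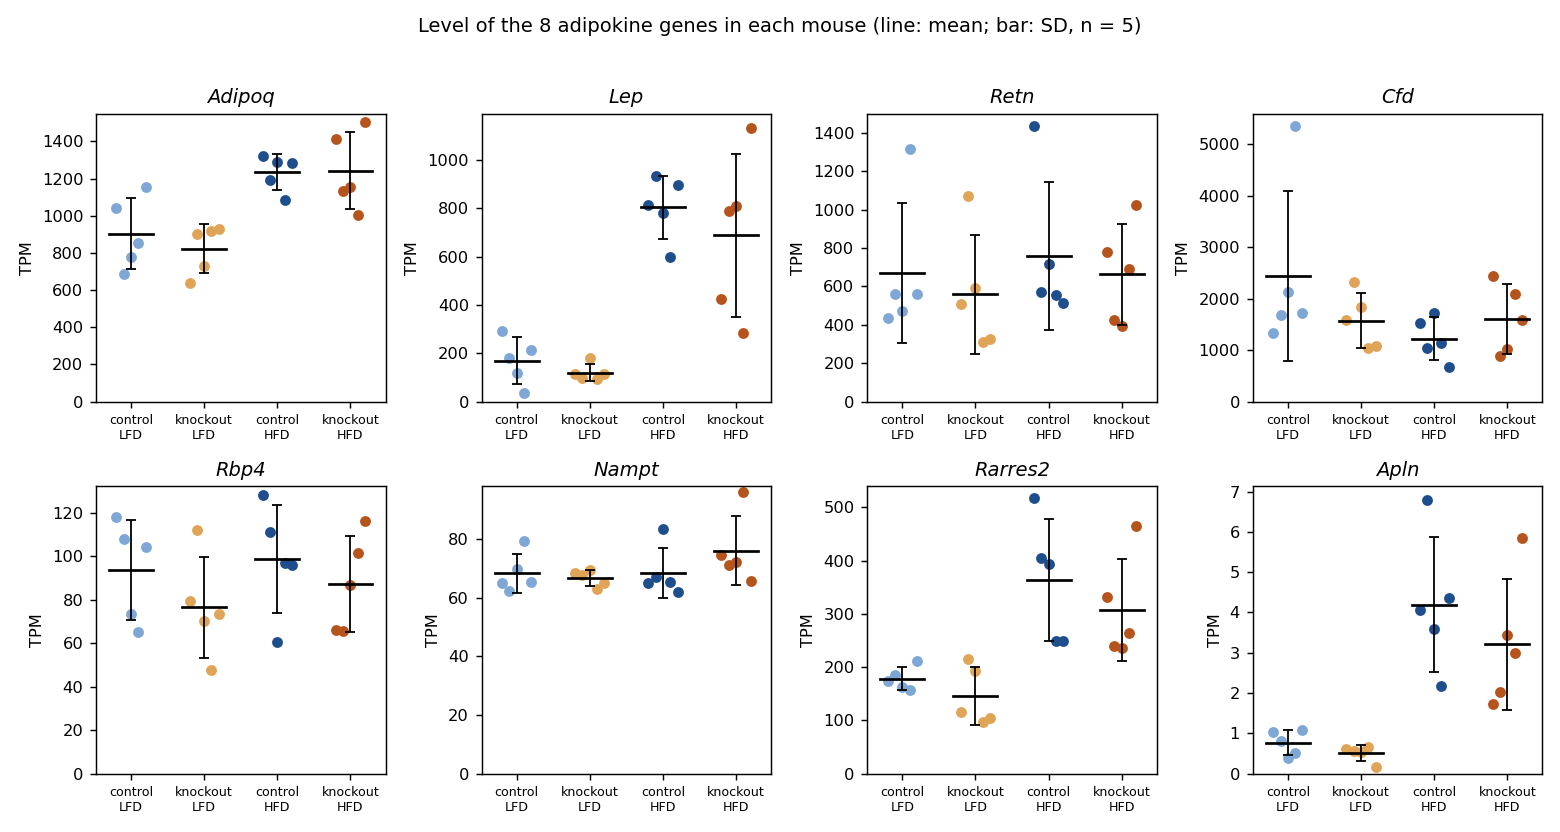
Level of each adipokine gene in each mouse, in TPM, with the mean (line) and SD (bar) of the 5 mice of each group. *Lep*, *Rarres2* and *Apln* on HFD lie above all LFD mice of the same genotype, and single mice stand high in *Cfd* (5349 TPM) and *Retn* (1314 and 1437 TPM).

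The diet comparison asked which adipokine transcripts changed on HFD within a genotype. In control mice 3 of the 8 genes, *Lep*, *Apln* and *Rarres2*, rose on HFD and none fell (edgeR, adjusted p under 0.1), where 9.32% of all 15311 genes tested were called in either direction. The same 3 genes rose in the knockout, where 9.4% of 15705 genes were called. The median log2 fold change of the 8 genes was 0.09 in control mice and 0.29 in the knockout, beside -0.04 and 0.00 for all genes.

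*Lep* stood at 294, 181.5, 118, 36.2 and 215 TPM in control mice on LFD and at 812, 931, 780.4, 598 and 896 TPM on HFD. In the knockout it stood at 115, 96.4, 179, 91.8 and 115 TPM on LFD and at 426, 789, 809.9, 283 and 1133 TPM on HFD. Every HFD mouse was above every LFD mouse of its genotype, and the knockout on HFD had the widest spread, with 2 mice at 283 and 426 TPM. The log2 fold change of *Lep* on HFD was 2.10 ± 0.38 (SE, n = 5) in control mice (edgeR adjusted p = 0.0105) and 2.41 ± 0.33 in the knockout (adjusted p = 0.00261). Mean TPM was 4.76 times as high in control mice and 5.76 times as high in the knockout.

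*Apln* stood at 1.03, 0.813, 0.381, 0.519 and 1.10 TPM in control mice on LFD and at 4.05, 6.80, 3.60, 2.18 and 4.35 TPM on HFD. In the knockout it stood at 0.625, 0.575, 0.549, 0.668 and 0.178 TPM on LFD and at 1.72, 2.03, 3.45, 2.99 and 5.84 TPM on HFD. The diets did not overlap in either genotype. The log2 fold change was 2.27 ± 0.33 (SE, n = 5) in control mice (edgeR adjusted p = 0.00528) and 2.502 ± 0.41 in the knockout (adjusted p = 0.00563).

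*Rarres2* stood at 173, 186, 163, 157 and 211.5 TPM in control mice on LFD and at 518, 406, 393, 249 and 249.7 TPM on HFD. In the knockout it stood at 116, 215.5, 192, 97.5 and 104 TPM on LFD and at 331, 239, 237, 264.5 and 466 TPM on HFD. The diets did not overlap, although the lowest HFD mouse of each genotype stood close to the highest LFD mouse. The log2 fold change was 0.83 ± 0.16 (SE, n = 5) in control mice (edgeR adjusted p = 0.0137) and 1.01 ± 0.20 in the knockout (adjusted p = 0.0128).

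On log2(TPM + 1), a two-sided exact permutation test of the group labels, not adjusted over the 32 tests run, gave p = 0.00794 for *Lep*, *Apln* and *Rarres2* in each genotype, the smallest p that such a test can give. TPM was also divided by the summed TPM of the 11 white adipocyte genes. Most of that sum was *Fabp4* (mean 15520 TPM in control mice on LFD and 20480 on HFD), so this scale is close to a ratio to *Fabp4*. Of the 11 genes, 8 were above 0 on HFD in control mice (edgeR, 1 called up and 1 called down), while *Pnpla2*, *Adrb3* and *Slc2a4* were lower in mean TPM. In the knockout 6 of the 11 were above 0 and 0 were called. On this scale *Lep* and *Apln* kept p = 0.00794 in both genotypes (exact permutation test). *Rarres2* then gave a log2 difference of 0.53 in control mice (p = 0.0238, exact permutation test) and 0.54 in the knockout (p = 0.135, exact permutation test). Of the 8 genes, 3 did not overlap between diets in control mice and 4 in the knockout, where 9.78% and 7.95% of all genes tested did not overlap.

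*Adipoq* was the fourth of these. It stood at 1044, 687, 779.5, 852 and 1156 TPM in control mice on LFD and at 1323, 1194, 1289, 1087 and 1283 TPM on HFD. In the knockout it stood at 638, 904, 729, 917.5 and 928 TPM on LFD and at 1410, 1133, 1154, 1006 and 1502 TPM on HFD. All 5 knockout mice on HFD were above all 5 on LFD, while in control mice 1 LFD mouse reached into the HFD range. On the TPM scale the exact permutation test gave p = 0.0159 in control mice and 0.00794 in the knockout (n = 5). After TMM scaling of counts the edgeR log2 fold change was 0.25 ± 0.17 (SE) in control mice (adjusted p = 0.45) and 0.47 ± 0.16 in the knockout (adjusted p = 0.12), neither of them called. Of 17 alternatives 4 called *Adipoq* in the knockout, DESeq2 (adjusted p = 0.0293), edgeR with the GC slope as a covariate (0.042), limma on log2(TPM + 1) (0.0623) and edgeR on all 20 libraries (0.0702), and limma alone called it in control mice (adjusted p = 0.0922). Divided by the white adipocyte sum, *Adipoq* differed between diets by 0.03 in control mice and 0.02 in the knockout on the log2 scale (p = 0.71 and 0.80, exact permutation tests). That sum itself ranged from 16280 to 21760 TPM in control mice on LFD, 21980 to 30300 on HFD, 14210 to 19630 in the knockout on LFD and 18910 to 28790 on HFD, and its part in the TPM difference was not tested.

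*Cfd* stood at 1340, 1681, 2125, 5349 and 1722 TPM in control mice on LFD and at 1528, 1045, 1731, 1138 and 683 TPM on HFD. In the knockout it stood at 1579, 2319, 1836, 1049 and 1084 TPM on LFD and at 2444, 896, 1015, 2099 and 1578 TPM on HFD. The diets overlapped in both genotypes, and replicate 4 of the control mice on LFD was more than double any other mouse of its group. The log2 fold change of *Cfd* on HFD was -1.20 ± 0.41 (SE, n = 5) in control mice (edgeR adjusted p = 0.12, not called) and 0.03 ± 0.30 in the knockout (adjusted p = 0.98). With the GC slope as a covariate the fold change in control mice was -1.19 ± 0.29 and was called (adjusted p = 0.0211), and it was called as well with all 20 libraries in one fit (adjusted p = 0.075) and without replicate 1 of the control mice on LFD (adjusted p = 0.0715). Without replicate 4 of the control mice on LFD it was -0.64. The mouse that was highest in *Cfd* was also the lowest of its group in *Lep* (36.2 TPM).

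*Retn*, *Rbp4* and *Nampt* were not called on either diet contrast. *Retn* ranged from 309 to 1437 TPM over the 20 mice, and its log2 fold change on HFD was -0.10 ± 0.35 (SE, n = 5) in control mice and 0.10 ± 0.30 in the knockout. *Rbp4* ranged from 47.8 to 128 TPM, with -0.06 ± 0.19 and 0.11 ± 0.23. *Nampt* had the narrowest range, from 62.0 to 96.1 TPM, with -0.25 ± 0.13 and 0.05 ± 0.13. The sign of all 3 in control mice turned positive on the TPM scale (limma, 0.19 for *Retn*, 0.07 for *Rbp4* and 0.00 for *Nampt*), on which the median of all genes was 0.13 and called genes split into 1791 higher and 348 lower, beside 676 and 751 in edgeR.

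Genes of other cell types also differed between diets in control mice, where 9.32% of all genes tested were called. Of the 12 muscle fibre genes, 10 fell on HFD, and their summed level ranged from 71.3 to 4198 TPM in control mice on LFD and from 45.5 to 125.8 on HFD. In the knockout none was called, and the sum ranged from 69.1 to 1298 TPM on LFD and from 116 to 1891 on HFD. Of the 5 brown and beige genes, 3 fell in control mice (*Cidea*, *Ppargc1a* and *Cox7a1*) and none was called in the knockout. In the knockout 11 of the 12 muscle fibre genes were above 0 (median 0.61). The following genes are named after their values were seen. In control mice *Cd68* rose (macrophage, 3 of 6 genes above 0, median -0.008). *Pdgfra* (progenitor, 2 of 6 above 0) and *Epcam* (mammary epithelium, 0 of 6 above 0) fell. In the knockout *Cd34* and *Pi16* (progenitor, 6 of 6 above 0) rose and *Cd3e* (lymphocyte, 1 of 8 above 0) fell. The part of these cell types in the values of the 8 genes was not tested.

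**Figure D2:**
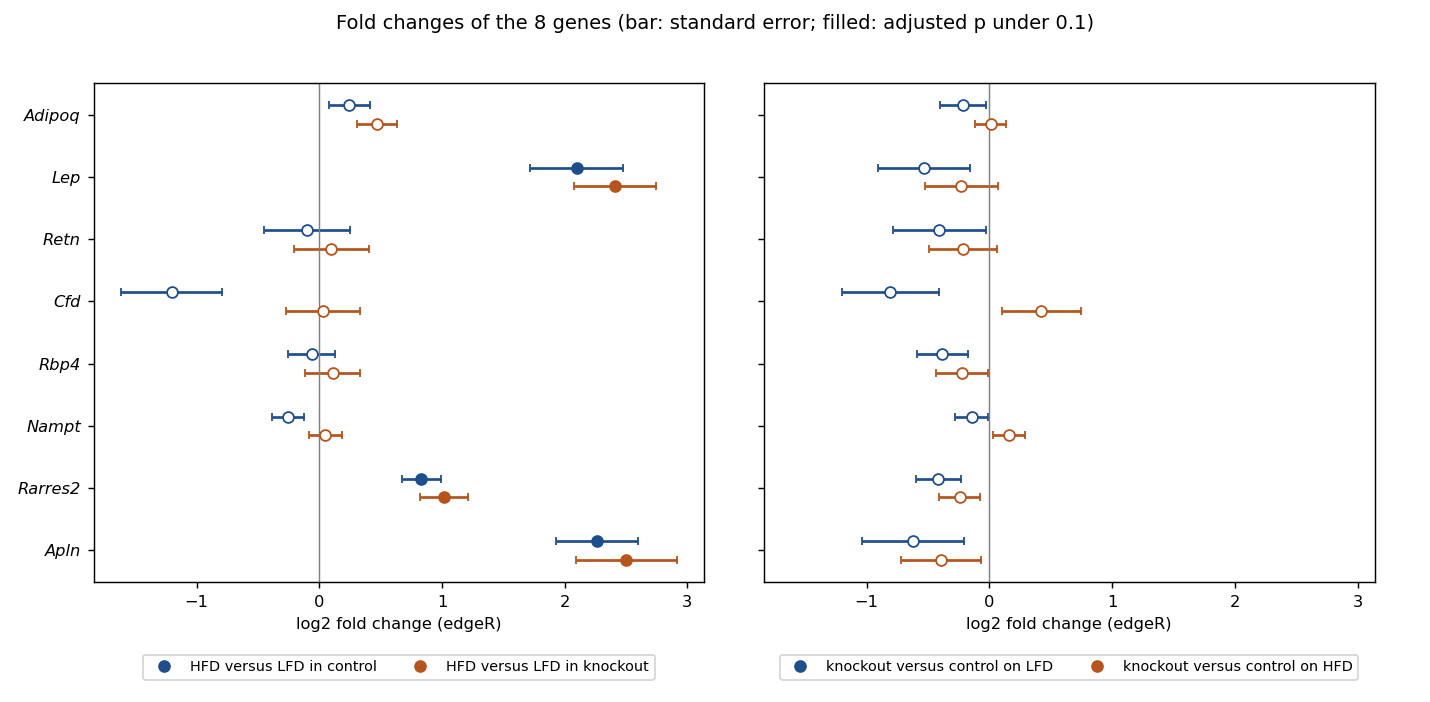
Fold changes (log2, edgeR) of the 8 genes between diets in each genotype (left) and between genotypes on each diet (right), with standard errors, n = 5 per group. Filled points passed adjusted p under 0.1, which *Lep*, *Rarres2* and *Apln* did between diets, and no gene did between genotypes.

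The genotype comparison asked whether removal of *Tmem120a* from adipocytes changed adipokine transcripts on either diet. None of the 8 genes was called on HFD, where 0.00657% of 15228 genes were called, or on LFD, where 0.00636% of 15717 were. This fit did not call *Tmem120a* itself on either diet, so the lack of a call does not show the lack of a difference. Of the 8 genes, 1 (*Rarres2* on LFD) had an unadjusted p under 0.05, beside 803 of all genes on LFD and 709 on HFD, and DESeq2, limma and the other fits called none of them either. The 1 gene called, *Gm11868*, was the same on both diets and is named after its values were seen.

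On LFD the log2 fold changes of all 8 genes in the knockout were below 0, with a median of -0.41 beside -0.02 for all genes. They ran from -0.81 ± 0.40 (SE, n = 5) for *Cfd* and -0.62 ± 0.41 for *Apln* to -0.14 ± 0.13 for *Nampt*. Without replicate 4 of the control mice on LFD, *Cfd* was at -0.24. Other lists also lay mostly below 0 on LFD with no gene called, with 10 of 11 white adipocyte genes (median -0.15), 6 of 6 progenitor genes (-0.36) and 20 of 23 other adipokine genes (-0.18). Divided by the white adipocyte sum, *Adipoq* (0.08) and *Nampt* (0.17) were above 0 on the log2 scale. *Lep* (-0.04), *Retn* (-0.08), *Rbp4* (-0.10), *Rarres2* (-0.16), *Cfd* (-0.30) and *Apln* (-0.39) stayed below 0. Without that division *Rarres2* was at -0.42 ± 0.18 (edgeR adjusted p = 0.93). On HFD 3 of the 8 were above 0, and the values ran from -0.39 ± 0.33 for *Apln* to 0.42 ± 0.32 for *Cfd*. *Lep* on HFD was at -0.23 ± 0.30, with knockout mice from 283 to 1133 TPM around control mice from 598 to 931 TPM. *Adipoq*, whose promoter drives the Cre, was at 0.01 ± 0.13 on HFD and -0.22 ± 0.19 on LFD. None of the 12 muscle fibre genes was called between genotypes, but all 12 log2 fold changes were above 0 on HFD (median 5.50) and all 12 below 0 on LFD (median -0.84), and their part in the values of the 8 genes was not tested.

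A pair of genes that lie before *Adipoq* on chromosome 16 was looked at as well, and neither was called. In NCBIM37 (mm9), *Adipoq* lies at chr16:23146609-23158101 on the plus strand, and *Eif4a2* and *Rfc4* end 32.4 and 18.8 kb before its start. *Eif4a2*, a helicase of translation initiation, was at 273 to 387 TPM in control mice on HFD and 468.5 to 627 in the knockout, with a log2 fold change of 0.80 ± 0.13 (SE, n = 5; edgeR unadjusted p = 4.38e-05, adjusted p = 0.16). *Rfc4*, a subunit of replication factor C, was at 7.13 to 11.6 TPM in control mice and 12.96 to 21.4 in the knockout, with 0.66 ± 0.23 (adjusted p = 0.87). On LFD *Rfc4* was at 0.72 ± 0.20 and *Eif4a2* at 0.47 ± 0.15 (both adjusted p = 0.93). Both genes were chosen for their place next to the promoter that the Cre uses, and the cause of their level was not tested.

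The interaction asked whether the diet effect differed between genotypes. None of the 8 genes was called, where 0.0% of 15574 genes were called by edgeR, 560 had an unadjusted p under 0.05 and DESeq2 called 14. *Cfd* came nearest, with a difference between the diet effects of 1.22 ± 0.54 on the log2 scale (SE, n = 5; edgeR unadjusted p = 0.0364, adjusted p = 0.9999). Without replicate 4 of the control mice on LFD it was 0.65. For *Lep* (0.29 ± 0.51), *Apln* (0.21 ± 0.52) and *Rarres2* (0.16 ± 0.26) this difference was smaller than its standard error.

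The receptors and partners of the 8 proteins were counted next, where 9.32% of all genes tested were called between diets in control mice and 9.4% in the knockout. Of 11 receptor genes, 10 passed the filter in control mice, of which 3 rose on HFD, and all 11 passed in the knockout, of which 3 rose and 1 fell. The 3 that rose were the same in both genotypes. *Aplnr*, the apelin receptor, rose from a mean of 6.27 ± 2.62 TPM (SD, n = 5) to 16.1 ± 4.49 in control mice (log2 fold change 1.18 ± 0.27, edgeR adjusted p = 0.0315) and by 1.19 ± 0.18 in the knockout (adjusted p = 0.00393). *Cmklr1*, the chemerin receptor, rose from 47.8 ± 10.6 to 109 ± 29.5 TPM in control mice (0.84 ± 0.20, adjusted p = 0.0344) and by 1.05 ± 0.20 in the knockout (adjusted p = 0.0119). *Cdh13*, T-cadherin, which binds adiponectin, rose from 19.6 ± 6.34 to 37.0 ± 6.10 TPM in control mice (0.62 ± 0.17, adjusted p = 0.0631) and by 0.86 ± 0.16 in the knockout (adjusted p = 0.0116).

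*Lepr*, the leptin receptor, fell by 0.83 ± 0.21 on the log2 scale in the knockout (edgeR adjusted p = 0.0429), from 14.2 ± 4.09 to 8.66 ± 1.997 TPM (SD, n = 5). In control mice it was at -0.55 ± 0.24 (adjusted p = 0.23, not called), while its mean TPM went from 8.66 ± 3.43 to 4.27 ± 1.30, and the interaction was -0.30 ± 0.33 (edgeR adjusted p = 0.9999, not called). TPM and estimated counts of *Lepr* did not move alike. On HFD the mean was 4.27 TPM in control mice and 8.66 in the knockout, while counts were 659 to 1613 and 715 to 1414. The cause was not tested, and the correlations of *Lepr* below use TPM. *Adipor2* was the most abundant of the adiponectin receptors (133 to 174 TPM in group means) and was not called on either contrast, and neither was *Adipor1*. *Stra6*, the receptor of retinol binding protein, stood under 1 TPM in group means. The endothelial genes *Cdh5* and *Esam* rose on HFD in control mice (0.66 ± 0.19 and 0.52 ± 0.15, 2 of 5 endothelial genes). The sum of these 5 genes ranged there from 98.0 to 174 TPM on LFD and from 168 to 263 on HFD. In the knockout 0 of the 5 were called and all 5 were above 0 (median 0.30). Their sum there ranged from 129.5 to 169.4 TPM on LFD and from 156.8 to 270 on HFD. The part of this sum in the rise of *Apln*, *Aplnr* and *Cdh13* was not tested.

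Of the 9 genes that act with these proteins, 8 passed the filter. In control mice *Cfb*, the factor B that adipsin cleaves, rose by 0.58 ± 0.16 on the log2 scale (SE, n = 5; edgeR adjusted p = 0.0593), and *C3*, the central complement component, fell by 0.78 ± 0.22 (adjusted p = 0.0716). In the knockout *Pparg*, the master regulator of adipocytes, rose by 0.46 ± 0.13 (adjusted p = 0.0653), and *Cfb* and *C3* were at 0.57 ± 0.27 and -0.53 ± 0.19 (adjusted p = 0.26 and 0.14). Of the 30 other adipokine genes, 24 passed in control mice, of which 7 rose and 2 fell, and 23 passed in the knockout, of which 6 rose. Over all genes tested, 9.32% were called in control mice and 9.4% in the knockout.

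*Sfrp5*, a secreted antagonist of Wnt, rose on HFD by 2.15 ± 0.57 on the log2 scale (SE, n = 5) in control mice and by 2.86 ± 0.62 in the knockout. *Sparc*, a matrix protein, rose by 1.28 ± 0.20 and 1.26 ± 0.25, and *Pltp* and *C1qtnf9* rose in both genotypes as well. *Ccl2* and *Ccdc3* rose in control mice (1.18 ± 0.31 and 0.56 ± 0.16), where *Agt*, angiotensinogen, and *Lcn2*, lipocalin 2, fell by 2.05 ± 0.36 and 0.75 ± 0.22. *Retnla* rose by 0.62 ± 0.16 in the knockout.

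**Figure D3:**
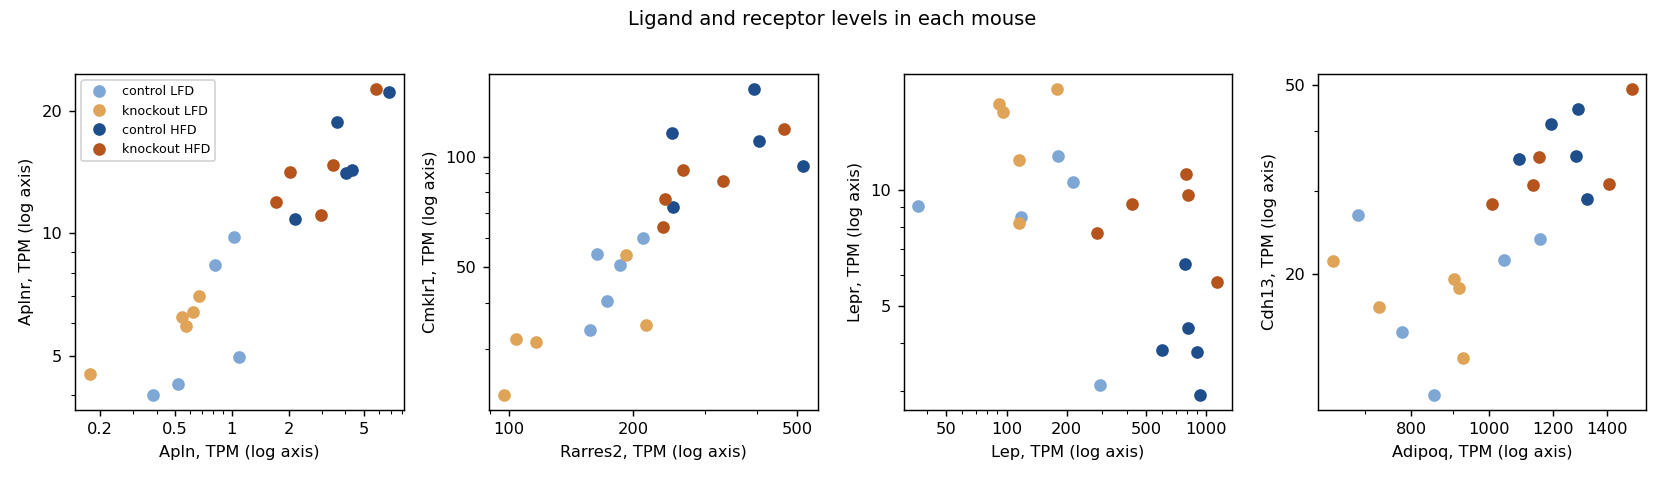
Level of a ligand against that of its receptor in each of the 20 mice, in TPM on log axes, coloured by group. *Apln* and *Aplnr* (r = 0.93) and *Rarres2* and *Cmklr1* (r = 0.89) rise together, *Lep* and *Lepr* run in opposite directions (r = -0.60), and all HFD mice lie to the right of all LFD mice for *Apln* and *Rarres2*, while the diets overlap for *Lep* and *Adipoq* when the genotypes are pooled.

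Over the 20 libraries, *Apln* and *Aplnr* correlated with Pearson's r = 0.93 and Spearman's rho = 0.93 on log2(TPM + 1), and *Rarres2* and *Cmklr1* with r = 0.89 and rho = 0.92. These libraries fall into the 4 groups, and deviations from the group means gave r = 0.73 for *Apln* and *Aplnr* and 0.61 for *Rarres2* and *Cmklr1*. *Lep* and *Lepr* had r = -0.60 over all libraries and -0.23 within groups. *Adipoq* and *Cdh13* had r = 0.70 over all libraries and 0.12 within groups. *Cfd* and *C3* had r = 0.73 and 0.76. Within groups *Rarres2* and *Cfd* had r = 0.80 and 0.77 with the library GC slope described below, and its part in these pairs was not tested. The share of all genes with an r as high was not computed for these pairs. Genes outside the lists reached rho = 0.96 with *Apln* and 0.98 with *Rarres2*. All such values are descriptions over n = 20 libraries, which share depth, tissue makeup and the TPM total, and they carry no test.

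**Figure D4:**
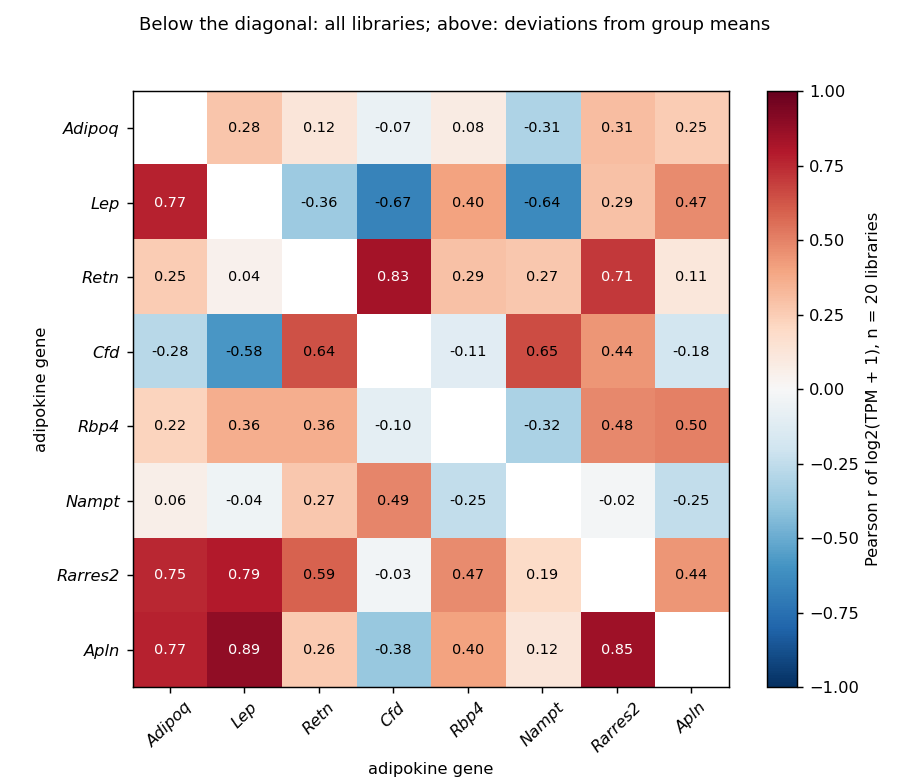
Pearson's r between the 8 genes on log2(TPM + 1) over 20 libraries, below the diagonal for all libraries and above it for deviations from the 4 group means. The block of *Adipoq*, *Lep*, *Rarres2* and *Apln* (r from 0.75 to 0.89) is weaker within groups (0.25 to 0.47), while *Retn* and *Cfd* go from 0.64 to 0.83.

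Among the 28 pairs of the 8 genes, the largest r was between *Lep* and *Apln* (r = 0.89, rho = 0.91), followed by *Rarres2* and *Apln* (0.85 and 0.86) and *Lep* and *Rarres2* (0.79 and 0.84). Of all genes with at least 5 TPM, 2.86% had an r with *Lep* as high as that of *Apln*, and 9.28% one as high as that of *Rarres2*. *Adipoq* had r between 0.75 and 0.77 with each of the 3. Within groups these 6 pairs had r between 0.25 and 0.47.

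Other pairs had larger r within groups than over all libraries. *Retn* and *Cfd* had r = 0.64 over all libraries and 0.83 within groups, and *Retn* and *Rarres2* had 0.59 and 0.71. *Cfd* and *Nampt* had 0.49 and 0.65. These genes did not form 1 block, since within groups *Cfd* and *Rarres2* had 0.44, *Retn* and *Nampt* 0.27 and *Nampt* and *Rarres2* -0.02. On log2 CPM *Retn* and *Rarres2* had r = 0.36, and 16.7% and 19.9% of genes had an r with *Retn* as high as those of *Cfd* and *Rarres2*. Within groups *Retn*, *Cfd* and *Rarres2* also had r = 0.90, 0.77 and 0.80 with the library GC slope described below. The part of that slope in these pairs was not tested. *Lep* ran against *Cfd* (-0.58 over all libraries, -0.67 within groups and -0.61 on log2 CPM). Without the 2 libraries farthest from the *Lep* median this r was -0.44. *Lep* and *Nampt* had -0.64 within groups and -0.55 on log2 CPM, but -0.04 over all libraries and 0.16 without those 2 libraries.

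The genes closest to each member by Spearman's rho, among genes outside the lists whose mean reached 5 TPM, were *Sdpr* (0.93), *Cpped1* and *Tmem45b* for *Adipoq*, *Prkcdbp* (0.97), *Snx9* and *Pea15a* for *Lep*, and *Dync1li2* (0.96), *Cltb* and *Nes* for *Apln*. For *Rarres2* they were *Scd1* (0.98), the desaturase that makes monounsaturated fatty acids, *Tusc5* and *Rcan1*. For *Retn* they were *Aup1* (0.97), *Ftl1* and *Gpx4*, and for *Cfd* they were *Sdhb* (0.91) and *Scarna13*. *Rbp4* was closest to *Dynll2* (0.87), *Bace1* and *Pdpr*, and *Nampt* to *Polr1e* (0.78), *BC037034* and *Gm10393*, the lowest of the leading values.

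Levels of several members moved with a property of the whole library. The slope of gene levels on the GC content of transcripts, computed for each library over 8900 genes, ranged from -0.44 to 0.38 on the log2 scale per 10% GC, and each group held libraries on both sides of 0. *Retn* correlated with this slope with r = 0.90 (rho = 0.92, n = 20) and *Cfd* with r = 0.64, and within groups with 0.90 and 0.77. *Rarres2* had r = 0.55 over all libraries and 0.80 within groups, and *Lep* had 0.01 and -0.18. GC content was taken from the longest coding transcript of each gene. For *Retn* this was a minor transcript (49.4% GC, beside a median of 48.6% for those genes), with at most 4.99% of its TPM. The GC content of the main *Retn* transcript was not computed. The GC content of *Cfd* (58.4%) was exceeded by 4.8% of those genes, and that of *Lep* was 48.7%. With the slope as a covariate, added after the data were seen, the standard error of *Retn* between diets fell from 0.35 to 0.20 in control mice and from 0.30 to 0.12 in the knockout, and *Retn* was still not called. *Lep*, *Apln* and *Rarres2* were called in both genotypes in that fit as well. What sets the slope was not tested.

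**Figure D5:**
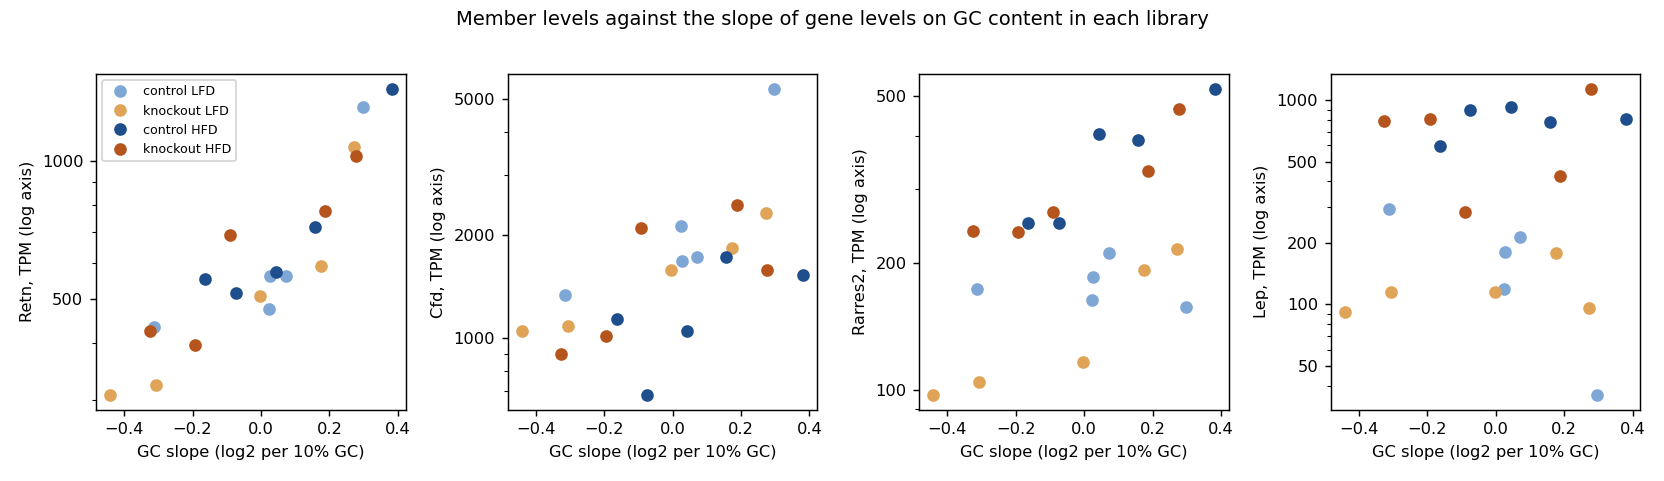
Level of 4 of the genes (TPM, log axis) against the slope of gene levels on GC content in each library (log2 per 10% GC), coloured by group. *Retn* follows the slope across all groups (r = 0.90), *Cfd* and *Rarres2* follow it within groups (0.77 and 0.80), and *Lep* does not (0.01 over all libraries).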

How the data were processed

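Total RNA of iWAT, depleted of ribosomal RNA, was sequenced as stranded read pairs. Per the submitters' processing notes and the methods, the authors quantified transcripts with Salmon 0.13.1 (STAR 2.5.3 and the build mm9 are also named) and deposited estimated counts and TPM for 96533 Ensembl transcripts of NCBIM37, without normalization between libraries. The deposited TPM are scaled to a fixed total per library. Transcripts were summed per gene with GENCODE vM1, which matched 94334. Unmatched transcripts held 0.377% to 0.581% of counts.

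Estimated counts were rounded and tested with edgeR 4.0.16 (quasi-likelihood, TMM scaling) on genes whose mean TPM in the compared libraries reached 0.5, and adjusted p (Benjamini-Hochberg, all genes tested) under 0.1 was a call, as in the methods. Standard errors of fold changes were derived from the F statistic. DESeq2 1.42.0, limma 3.58.1 on log2(TPM + 1), no filter, length offsets, all 20 libraries in one fit, a threshold of 0.05, leave-one-out and the GC slope were alternatives. Single genes were compared by exact permutation tests on log2(TPM + 1). Fits were tested on simulated data. R 4.3.3 and Python 3.11.15 were used.

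The 8 genes, the gene lists and the alternatives were chosen with earlier results of these data known. Genes named are the 8, called genes of the receptor, partner and other adipokine lists with the leading receptors, the 3 nearest genes of each member, and *Tmem120a*, *Eif4a2* and *Rfc4*, and some genes that these rules name are not reported here. The labels give no batch. No pair of libraries was identical. Each library is 1 mouse. Errors are over mice, and no counting intervals were computed.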

Additional observations from a re-analysis of the deposited data

Results flagged for a closer look

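In 6 of the 32 groups of 5 mice (8 genes in 4 groups), 1 mouse stood apart from the others of its group by Dixon's test on TPM. The rate of about 1 group in 20 by chance applies to independent groups of normally distributed values. TPM was not checked for this, and the 32 groups share the same 20 libraries, so the count cannot be set against that rate. Replicate 4 of the control mice on LFD was high in *Cfd* (5349 TPM) and in *Retn* (1314 TPM), and replicate 11 of the control mice on HFD was high in *Retn* (1437 TPM). These 2 libraries had GC slopes of 0.30 and 0.38, the 2 highest of all 20, and the part of the slope in these values was not tested. *Lep* was high in replicate 8 of the knockout mice on LFD (179.3 TPM), *Nampt* was high in replicate 13 of the control mice on HFD (83.49 TPM), and *Apln* was low in replicate 10 of the knockout mice on LFD (0.1778 TPM, 37 estimated counts). Without the *Lep*, *Apln* or *Retn* mouse concerned, each diet call of *Lep* and *Apln* held and *Retn* was not called.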

How the results depend on the processing

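*Lep*, *Apln* and *Rarres2* rose on HFD and passed the threshold in both genotypes under all 17 alternative fits across all genes run for each diet comparison. None of the 8 genes was called between genotypes or in the interaction under any such fit. Divided by the white adipocyte sum, which is not among these fits, *Rarres2* in the knockout did not keep exact permutation p under 0.05. No paired analysis was possible because replicate numbers are not shared between groups. Over single genes and pairs, 1144 of 1252 alternative values kept their direction and their side of the threshold or moved by less than their error. Genes that were not called at first and stayed so with the same sign are among these 1144, so this share does not measure how stable the calls are. Apart from what follows, causes were not tested. With 5 mice per group, 0.1778 to 1.10 TPM of *Apln* on LFD rest on 37 to 247 counts.

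Counts over all genes moved with the method. Knockout against control on HFD gave 100 called genes with DESeq2, 26 with no filter, 3 with limma or all 20 libraries in one fit and 5 with length offsets or the GC slope, and from 1 to 58 with 1 library left out (58 without knockout replicate 21, 10 without control replicate 12, 2 without control replicate 15). On LFD it gave 17 with DESeq2, 2 with limma or all 20 libraries, 3 with the GC slope and 1 to 2 with 1 library left out (2 without control replicate 1). HFD against LFD in control mice gave 728 at a threshold of 0.05, which keeps fewer by construction, 2205 with DESeq2, 3679 with the GC slope and 780 to 1845 with 1 library left out (810, 873 and 868 without LFD replicates 2, 3 and 5, and 780 and 827 without HFD replicates 12 and 13). In the knockout these counts were 865, 2247, 3663 and 753 to 1355 (753 without LFD replicate 6 and 963 without HFD replicate 21). The interaction gave 14 with DESeq2.

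Values that changed sign lay near 0 or in genes not called. With limma, *Adipoq* between genotypes on HFD was -0.006, *Retn*, *Rbp4* and *Nampt* between diets in control mice 0.194, 0.069 and 0.002, *Cfd* in the knockout -0.011, and the interactions of *Lep* and *Apln* -0.124 and -0.112. With length offsets *Adipoq* was -0.01 and *Cfd* -0.062, with all 20 libraries *Adipoq* was -0.001, and with the GC slope *Cfd* was -0.035. With 1 library left out, edgeR values ranged for *Adipoq* between genotypes on HFD from -0.057 to 0.056, for *Retn* from -0.357 to 0.098 on HFD, -0.715 to 0.031 on LFD, -0.417 to 0.334 between diets in control mice, -0.045 to 0.393 in the knockout and -0.262 to 0.482 in the interaction. They ranged for *Rbp4* between diets from -0.187 to 0.078 in control mice and -0.032 to 0.265 in the knockout, and there for *Cfd* from -0.212 to 0.184 and for *Nampt* from -0.052 to 0.129, and for *Apln* in the interaction from -0.065 to 0.456.

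On log2(TPM + 1), leaving out 1 library gave -0.078 to 0.066 for *Adipoq* and -0.351 to 0.088 for *Retn* between genotypes on HFD, -0.721 to 0.025 for *Lep* and -0.062 to 0.025 for *Nampt* on LFD, -0.065 to 0.47 for *Retn*, -0.051 to 0.231 for *Rbp4* and -0.07 to 0.056 for *Nampt* between diets in control mice, and -0.189 to 0.173 for *Cfd* in the knockout. Exact permutation p under 0.05 was met by 0 to 1 of the 8 genes between genotypes on either diet, the 1 being *Nampt* on HFD without control replicate 13 and *Lep* on LFD without control replicate 4. With log2 CPM after TMM scaling, *Retn*, *Rbp4* and *Nampt* in control mice were -0.033, -0.085 and -0.227. Divided by the white adipocyte sum they were -0.249, -0.375 and -0.442, and in the knockout -0.264, -0.365 and -0.394. There the exact permutation p of *Rarres2* and *Adipoq* was above 0.05, while 2 of the 8 genes, *Lep* and *Apln*, kept p under 0.05. In control mice 5 did on that scale, among them *Cfd* and *Nampt*, both lower on HFD (-1.316 and -0.442, exact permutation p = 0.0159 and 0.0317). By the same scale *Adipoq* was 0.073 on HFD and 0.08 on LFD between genotypes, and *Nampt* 0.174 on LFD. Of the 28 pairs of genes, 9 had an absolute r of at least 0.5 over all libraries and 5 in deviations from group means, counted on unrounded values (*Rbp4* and *Apln*, 0.50 when rounded, lay just under).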

Other observations

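Among the other adipokine genes, *Lcn2*, lipocalin 2, had a mean of 41.8 ± 9.76 TPM (SD, n = 5) in control mice fed HFD and 69.99 ± 13.96 in the knockout, with a log2 fold change of 0.74 ± 0.19 (SE; edgeR adjusted p = 0.46, not called). Its diet effect differed between genotypes by 1.02 ± 0.30 (edgeR unadjusted p = 0.00306, adjusted p = 0.9999). This gene was picked with its values known.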
